A study of Mus musculus with 6 samples.

Results

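The genes described here are 7 genes of 2 kinds. Crct1, Sprr1a and Ivl belong to the cornified-envelope type, and Ly6d, Ly6g6c, Ly6a and Ly6e to the Ly6 family. They were chosen by name with earlier results of the same arrays in view, so every difference of theirs between the groups is a description. The platform annotation paired 10 probe sets with 6 of the 7 genes, out of 34945 probe sets paired with 1 gene and 18193 genes in all. No probe set is paired with Ly6a in the annotation used here, and Ly6a is named without a value.

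The series measured RNA of intestinal epithelial cells from C57BL/6 mice on an Affymetrix expression array, with 1 array per sample. The caspase-8 deficient group, 3 samples, carried the casp8 flox alleles and was positive for villinCre. The floxed control group, 3 samples, carried casp8 flox and was negative for villinCre. Both groups share the floxed gene, and the Cre recombinase is driven by the villin promoter, which is active in gut epithelium. The labels do not give the animals' age or the stretch of gut. Each sample is called a biological replicate in its title, without a count of animals, and the p-values below measure the spread between these samples. The targeted gene, Casp8, read 9.27, 9.56 and 10.40 in caspase-8 deficient arrays, against 10.53, 9.74 and 10.24 in floxed control arrays. These overlap, and since the labels do not name the removed exons, its probe set may lie outside them and does not check the labels.

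The cornified envelope is the cross-linked protein shell under the membrane of skin and other stratified squamous cells. Its precursors, among them involucrin, loricrin and the small proline-rich proteins, lie side by side in 1 gene cluster, the epidermal differentiation complex, and transglutaminases join them together. Ly6 proteins are small, disulfide-bonded domains that are mostly held at the cell surface by a lipid anchor. Ly6d marks squamous epithelia and early B cells, Ly6a is the stem cell antigen Sca-1 of the mouse, and Ly6a and Ly6e are induced by interferon. The simple epithelium of the intestine forms no cornified envelope.

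Promoter sequence was at hand in the RefSeq table for 3 of the 7 genes, Sprr1a, Ivl and Ly6g6c (build GRCm38.p6). The 250 bases before each start are shown because Sprr1a and Ivl are near neighbours whose values differed in these arrays, and Ly6g6c lies on another chromosome. They run 5′ to 3′ on the gene's strand, with capitals marking the AP-1 motif TGAGTCA, read on either strand, and the TATA motif TATAAA.
Sprr1a, chr3:92485882-92486131, minus strand: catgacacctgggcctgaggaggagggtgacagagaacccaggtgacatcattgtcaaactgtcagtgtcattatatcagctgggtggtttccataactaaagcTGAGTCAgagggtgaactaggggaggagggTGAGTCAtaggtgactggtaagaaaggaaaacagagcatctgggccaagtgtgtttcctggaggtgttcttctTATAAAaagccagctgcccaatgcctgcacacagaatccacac
Ivl, chr3:92573736-92573985, minus strand: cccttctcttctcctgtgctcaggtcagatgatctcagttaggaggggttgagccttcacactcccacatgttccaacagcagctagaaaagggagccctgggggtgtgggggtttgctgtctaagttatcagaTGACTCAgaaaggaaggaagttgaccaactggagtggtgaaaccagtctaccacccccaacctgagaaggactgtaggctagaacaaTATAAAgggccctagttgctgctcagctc
Ly6g6c, chr17:35067075-35067324, plus strand: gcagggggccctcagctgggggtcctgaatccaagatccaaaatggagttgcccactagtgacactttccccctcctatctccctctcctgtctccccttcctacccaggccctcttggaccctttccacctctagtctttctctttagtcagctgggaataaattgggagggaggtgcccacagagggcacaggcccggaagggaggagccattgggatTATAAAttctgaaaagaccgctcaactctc
The Sprr1a window held the AP-1 motif 2 times, at 146 to 140 and at 116 to 110 bases before the start, and the Ivl window held it 1 time, at 116 to 110 bases. The Ly6g6c window had no match. Of the 32851 promoter windows of this length in the table, 4.46% held the AP-1 motif at least 1 time and 0.167% at 2 or more places. All 3 windows held TATAAA, at 43, 29 and 30 bases before the start for Sprr1a, Ivl and Ly6g6c, against 12.4% of all windows with the motif on either strand. The interferon-stimulated response element (GAAA, any 2 bases, GAAA; 2.98% of all windows), the gamma-activated site TTCNNNGAA (7.02%) and the Grainyhead motif AACCGGTT (0.116%), each searched on both strands, had no match in the 3 windows. A match is a run of letters and does not show that a factor binds there.

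Values below are log2 expression made by RMA, so a difference of 1 is a doubling of signal. Differences are caspase-8 deficient minus floxed control, with a standard error (SE) from limma. For the probe sets of the 6 measured genes the SE is from the fit over all probe sets paired with 1 gene. For other genes it is from the fit over all genes, with 1 probe set each. Of the 6 measured genes, Crct1, Ly6g6c, Ly6d and Sprr1a read higher without caspase-8, by 9.06-, 6.23-, 5.42- and 3.34-fold. Ivl differed little, and Ly6e read slightly lower. In limma over all genes, 3 of the 6, Crct1, Ly6d and Ly6g6c, passed an adjusted p of 0.05 as higher, where 0.308% of the 18193 genes did, and 0 of the 6 passed as lower, where 0.467% of all genes did. In 4 of the 6 the caspase-8 deficient arrays all lay above the floxed control arrays, where 11.5% of all genes had this order. In 1 of the 6, Ly6e, they all lay below, by 8.29 against 8.31 at the closest, where 11.2% of all genes did. The groups overlapped in the second Ly6e probe set. These shares are given for scale, since the genes were chosen from this contrast. In these bulk samples, more cells with the RNA and more RNA per cell cannot be told apart.

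**Figure D1:**
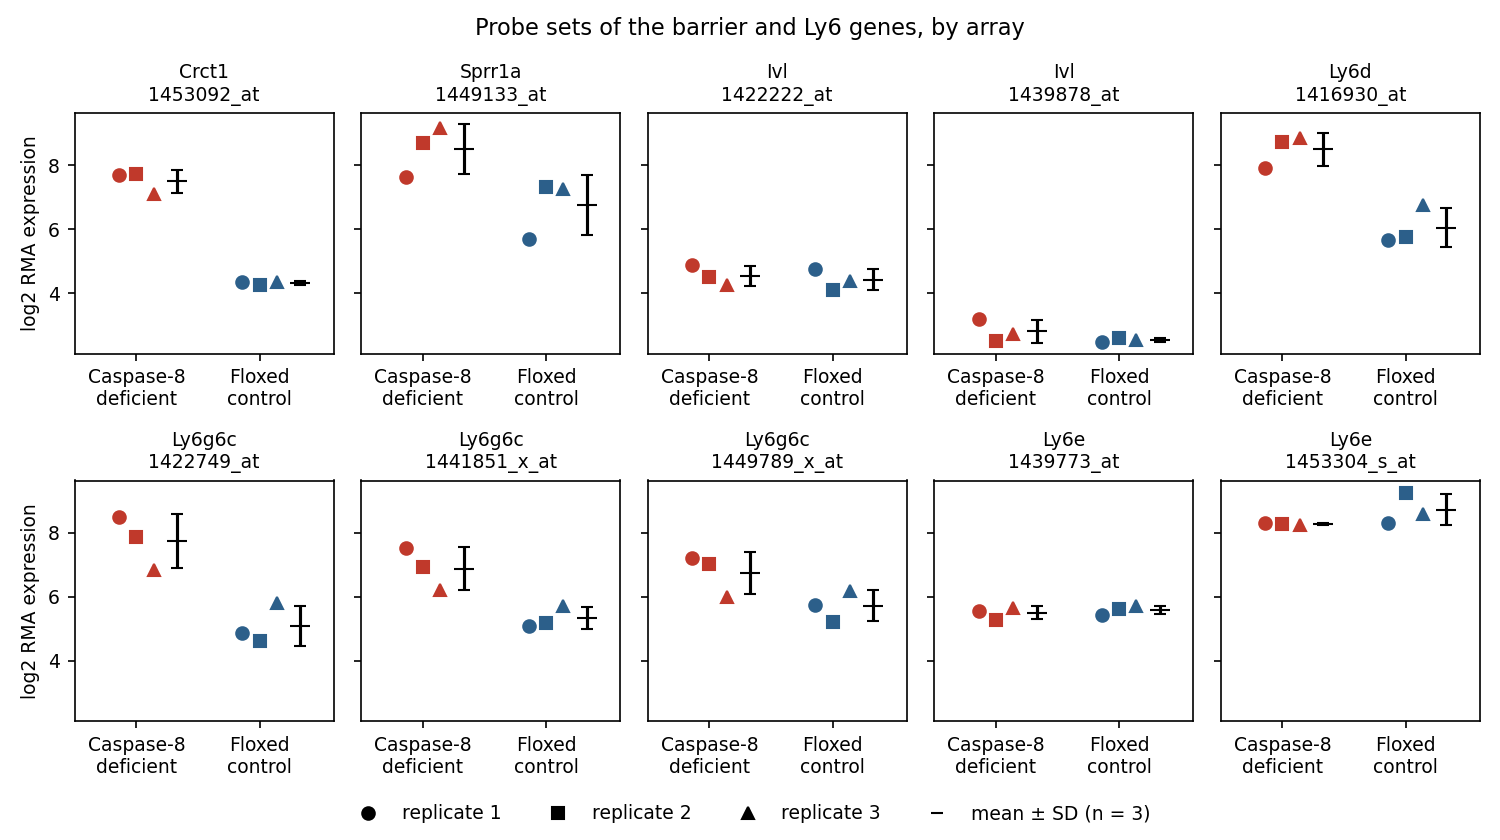
Log2 RMA expression of the 10 probe sets, with 3 caspase-8 deficient arrays (red, left) and 3 floxed control arrays (blue, right) in each panel. Symbols mark the replicate number, and black bars give mean ± SD (n = 3). The groups are far apart for Crct1, separate with wide spread for Ly6d, Sprr1a and 2 Ly6g6c probe sets, and close for Ivl and Ly6e.

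Crct1 (cysteine-rich C-terminal 1) encodes a small cysteine-rich protein of the epidermal differentiation complex and had 1 probe set. It read 7.69, 7.72 and 7.09 in caspase-8 deficient arrays, against 4.36, 4.25 and 4.36 in floxed control arrays. The floxed control arrays lay almost on 1 value, with an SD of 0.063, and all 3 were below the median probe set of their array. The caspase-8 deficient arrays had an SD of 0.35 and were all at least 2 log2 units above that median. The log2 difference was 3.18 (SE 0.18). RMA compresses dim signals, which limits what its size and the small floxed control SD can show.

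Sprr1a (small proline-rich protein 1A), a cross-linked precursor of the envelope that nerve and gut injury also induce in rodents, had 1 probe set. It read 7.64, 8.69 and 9.17 in caspase-8 deficient arrays, against 5.69, 7.33 and 7.27 in floxed control arrays. The groups did not overlap, but the lowest caspase-8 deficient array lay close to the highest floxed control array. Replicate 1 was the lowest of its group in both groups. The log2 difference was 1.74 (SE 0.51), and it was 1.20 without floxed control replicate 1. Sprr1a did not pass in limma over all genes.

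Ivl (involucrin), the scaffold on which the envelope is built, had 2 probe sets. The one with the higher mean read 4.89, 4.50 and 4.27 in caspase-8 deficient arrays, against 4.76, 4.11 and 4.39 in floxed control arrays, which overlap. The log2 difference was 0.13 (SE 0.21, 95% confidence interval -0.35 to 0.62). The second probe set read 3.21, 2.50 and 2.74 in caspase-8 deficient arrays and 2.49, 2.59 and 2.54 in floxed control arrays, a difference of 0.28 (SE 0.18). The first changed sign, to -0.035 without caspase-8 deficient replicate 1 and to -0.024 without floxed control replicate 2. RMA compresses dim signals, and the table has no detection calls, so these values do not show whether Ivl RNA was present.

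Ly6d had 1 probe set, which read 7.90, 8.73 and 8.84 in caspase-8 deficient arrays, against 5.66, 5.75 and 6.75 in floxed control arrays. The lowest caspase-8 deficient array was above the highest floxed control array by more than 1 log2 unit. Floxed control replicate 3 stood above the other floxed control arrays. The log2 difference was 2.44 (SE 0.34).

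Ly6g6c encodes a Ly6 protein from a small gene group in the major histocompatibility complex and had 3 probe sets. The one with the highest mean, 1422749_at, which stands for the gene, read 8.50, 7.87 and 6.83 in caspase-8 deficient arrays, against 4.86, 4.63 and 5.80 in floxed control arrays, a log2 difference of 2.64 (SE 0.44). The probe set 1441851_x_at read 7.52, 6.92 and 6.20 in caspase-8 deficient arrays, against 5.10, 5.17 and 5.72 in floxed control arrays, a difference of 1.55 (SE 0.32). The probe set 1449789_x_at read 7.22, 7.01 and 6.00 in caspase-8 deficient arrays, against 5.75, 5.22 and 6.19 in floxed control arrays, a difference of 1.02 (SE 0.35). In all 3 probe sets replicate 1 was the highest and replicate 3 the lowest of the caspase-8 deficient arrays, and replicate 3 was the highest floxed control array. The groups did not overlap in the first 2, and overlapped in the last, where floxed control replicate 3 was above caspase-8 deficient replicate 3. The suffix _x_at marks probe sets that may also bind other transcripts. With the mean over the 3 probe sets the difference was 1.74, and Ly6g6c no longer passed. It also missed with a variance trend and robust prior, and in the fit over all probe sets, which gave these SEs, none of its 3 passed. In that fit 2 of the 10 probe sets passed, those of Crct1 and Ly6d, where 0.149% of all probe sets passed as higher.

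Ly6e, a broadly expressed Ly6 protein, had 2 probe sets. The one with the higher mean, 1453304_s_at, read 8.29, 8.26 and 8.22 in caspase-8 deficient arrays, against 8.31, 9.25 and 8.58 in floxed control arrays. The caspase-8 deficient arrays were nearly identical, with an SD of 0.032, and floxed control replicate 2 stood above the other floxed control arrays. The log2 difference was -0.46 (SE 0.22), and -0.19 without floxed control replicate 2. The probe set 1439773_at read 5.57, 5.28 and 5.66 in caspase-8 deficient arrays, against 5.44, 5.62 and 5.70 in floxed control arrays, a difference of -0.085 (SE 0.14). The suffix _s_at marks a probe set shared by several transcripts, and the 2 probe sets differ in size of change.

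The floxed control arrays differed in a measure of RNA quality. Gapdh is probed near both ends of its transcript, and its signal near the 3′ end exceeds that near the 5′ end more in degraded RNA. The excess (log2) was 0.29, 0.21 and 0.23 in caspase-8 deficient arrays and 0.68, 0.93 and 0.22 in floxed control arrays. With floxed control replicate 3 as the lone control array, the log2 differences were 3.14 for Crct1, 1.93 for Ly6g6c, 1.74 for Ly6d and 1.23 for Sprr1a. With the Gapdh excess as a covariate they were 3.14 for Crct1, 2.08 for Ly6g6c, 1.84 for Ly6d and 1.54 for Sprr1a. All 4 kept their direction in both settings. Crct1 moved least of the 4, and its floxed control arrays all lay below the median probe set of their array. The part of RNA quality in the 4 differences was not tested further. In the fit with the covariate Crct1 alone of the 6 passed, and with the lone control array, whose spread is then taken from the caspase-8 deficient arrays, 0 did in limma. Crct1 passed without each of the 6 arrays in turn. Ly6d passed without caspase-8 deficient replicate 1 or floxed control replicate 3 and missed without each of the other 4 arrays. Ly6g6c passed without caspase-8 deficient replicate 1 and missed without each of the other 5. These passes come from the same contrast with which the genes were chosen and are not independent evidence.

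**Figure D2:**
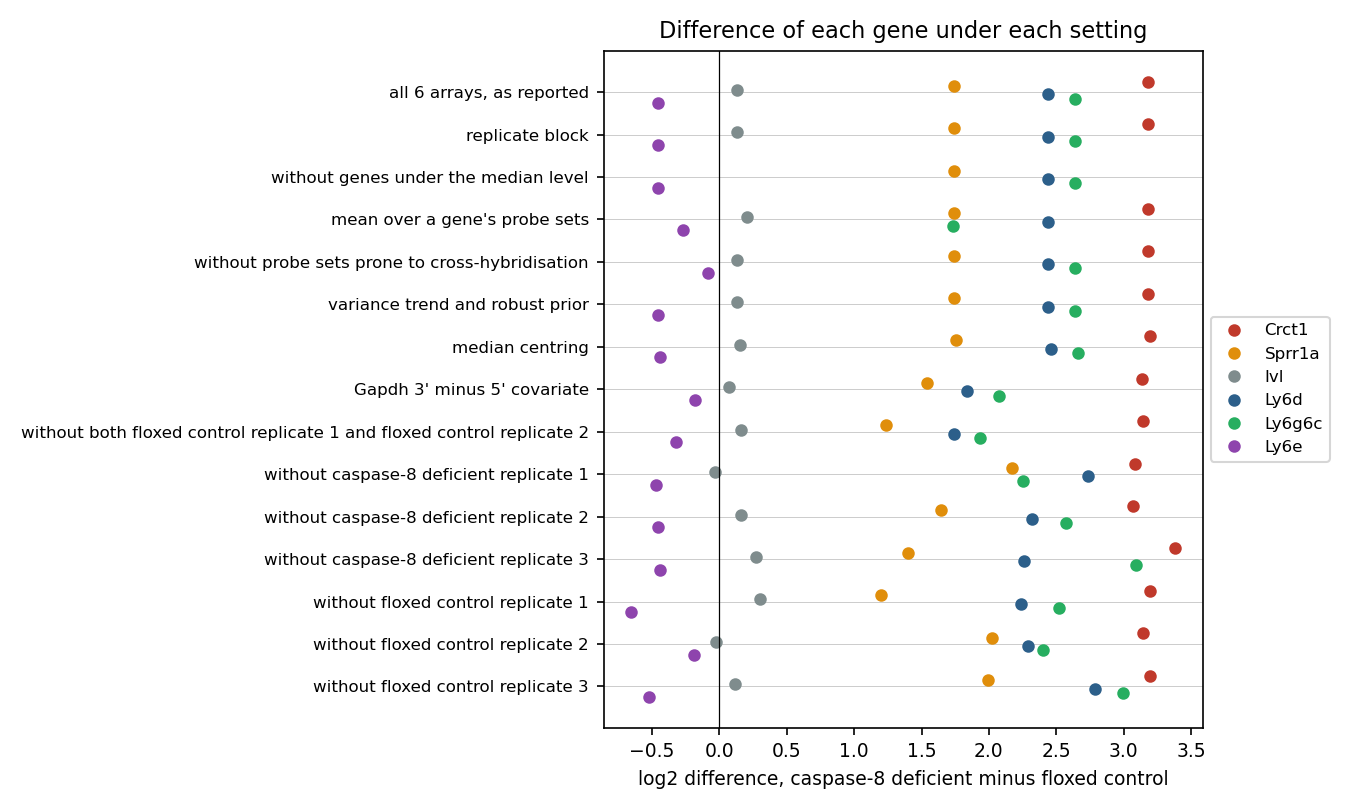
Log2 difference (caspase-8 deficient minus floxed control) of the 6 genes, by colour, under the reported fit (top row) and under each other setting, 1 per row; Crct1 and Ivl have no point in the row without genes under the median level. Crct1 stays between 3.07 and 3.38, Ly6d, Ly6g6c and Sprr1a spread more widely but stay positive, and Ivl crosses 0. The row named for cross-hybridisation leaves out every probe set with the suffix _s_at, _x_at or _a_at.

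Caspase-8 deficient replicate 1 stood apart, with 211 genes that exceeded all other arrays by over 1 log2 unit, where each of the other 5 had 1 to 33 such genes. The 13 endothelial markers averaged 6.49 on it and 4.38 and 4.39 on the other caspase-8 deficient arrays, against 4.17 to 4.52 on floxed control arrays. Without that array the differences were 3.08 for Crct1, 2.17 for Sprr1a, 2.73 for Ly6d and 2.26 for Ly6g6c, each above 2 log2 units; that of Sprr1a was 1.74 with all arrays. The count of the 6 that passed was 3 there too.

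Likeness in pattern was measured by the root mean square difference of their log2 profiles over the 6 arrays, each relative to its floxed control mean. Among the 6 genes the closest pairs were Crct1 with Ly6g6c (0.60), Ivl with Ly6e (0.64) and Ly6d with Sprr1a (0.70), followed by Crct1 with Ly6d (0.77). Among other genes, Crct1 was nearest to Il1rn, the interleukin-1 receptor antagonist (0.44), Anxa1, annexin A1 (0.59), and Acta1, skeletal muscle actin (0.83). Ly6d was nearest to Acta1 (0.39), Anxa1 (0.48) and the glutathione S-transferase Gsta3 (0.53). Ly6g6c was nearest to Anxa1 (0.63), Acta1 (0.74) and Paqr8 (0.77). Sprr1a was nearest to the phosphatase Dusp14 (0.43), Tm4sf4 (0.51) and Apobec2 (0.52). Ivl was nearest to Mir9-3hg, Snai3 and Hp (0.065, 0.067 and 0.072), and Ly6e to Def6, Ankrd44 and Rasa4 (0.062, 0.088 and 0.090). The measure takes in the size of the group difference as well as the order of the arrays, and so genes of unlike size lie far apart in it. Genes with small differences, such as Ivl and Ly6e, can lie close for that reason, so their small values do not show a closer likeness.

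Crct1 passed the test and Sprr1a did not, and other genes of the epidermal differentiation complex did not pass either. Of 32 measured members, 0 passed in limma over all genes. An unadjusted p under 0.05 was found for 2 of the 32, both higher, and for 3029 of all 18193 genes. That share is also the scale for the counts at this unadjusted threshold in the other lists. The median difference of the 32 was 0.043, against 0.022 for all genes, and the range was -0.21 to 0.82. The late cornified envelope gene Lce3f read 6.12, 6.36 and 5.58 in caspase-8 deficient arrays, against 5.11, 5.15 and 5.34 in floxed control arrays, a difference of 0.82 (SE 0.20, adjusted p = 0.111). Smcp, a sperm mitochondrial protein gene inside the complex, stood at 0.55 (adjusted p = 0.13) and Sprr2k at 0.49 (adjusted p = 0.312). Sprr1b, the other Sprr1 gene, stood at -0.00029, Sprr3 at 0.14 and Lor, which encodes loricrin, at -0.11. On every array 25 of the 32 genes lay under the median of all probe sets.

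The nearest protein-coding neighbours, 4 on each side in the RefSeq gene order, were measured for 25 different genes other than the 7. Of these, 0 passed in limma, and 6 had an unadjusted p under 0.05, all higher, where 3029 of all 18193 genes had such a p. All 25 differed by less than 1 log2 unit, between -0.21 and 0.82. Crct1 lies between Lce3f (0.82) and Lce1m (-0.15). Sprr1a lies between Sprr3 (0.14) and Sprr4, with Ivl (0.13) next after Sprr4. Ly6d lies between Lynx1 (0.50) and Ly6g6g (0.030), and Ly6g6c next to Ly6g6d (-0.21) and Ly6g6e (0.67). The Ly6a gene lies in a row with Ly6m, Ly6e and Ly6i, which stood at 0.48, -0.46 and 0.10.

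**Figure D3:**
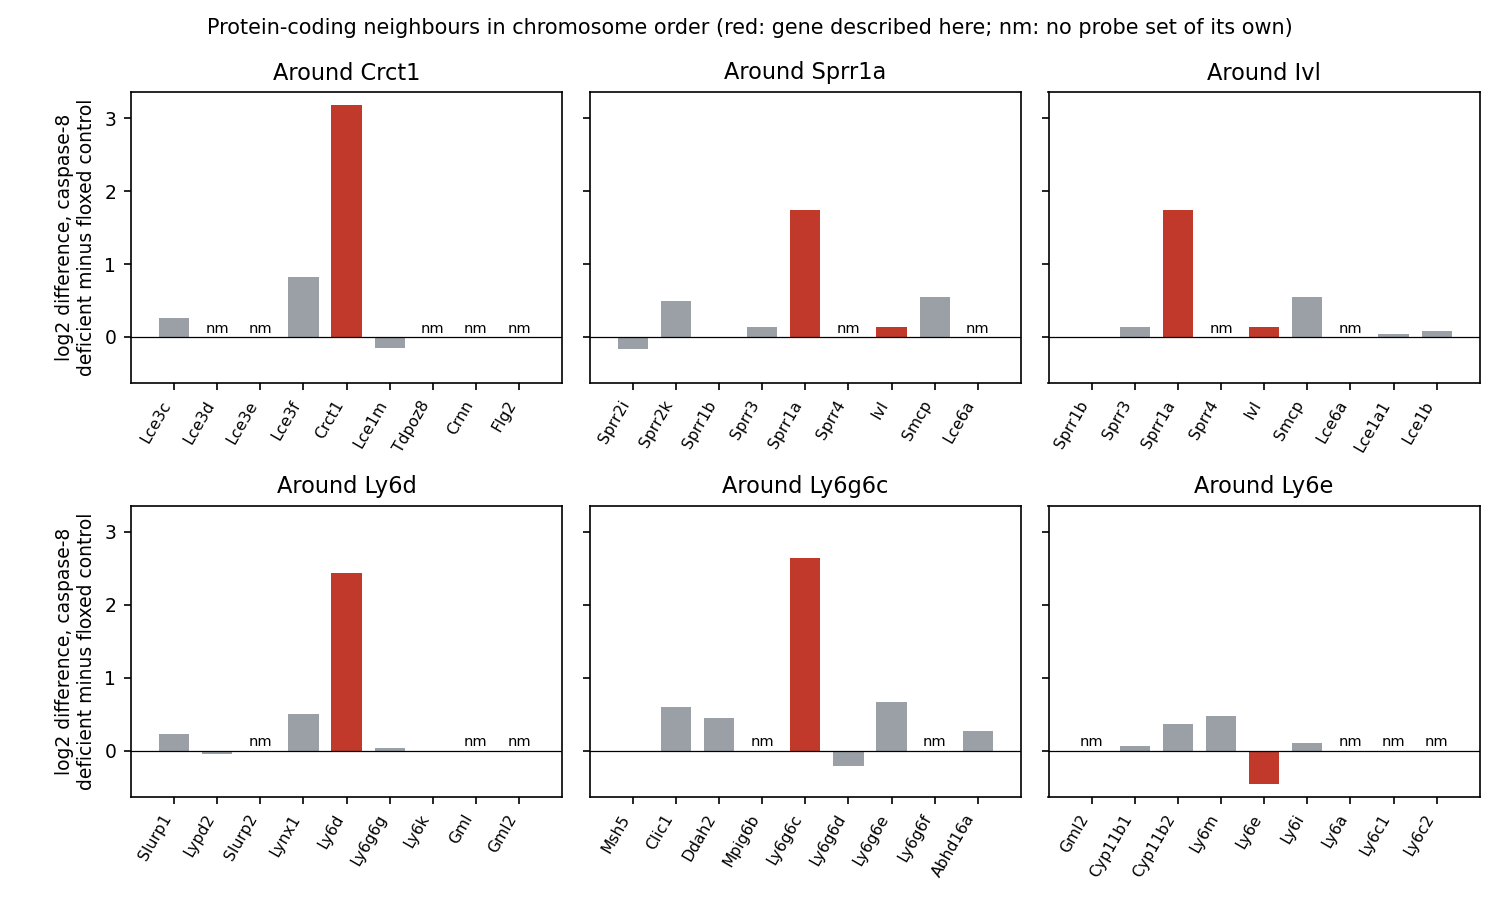
Log2 difference (caspase-8 deficient minus floxed control) of 6 genes (red) and of their protein-coding neighbours (grey) in chromosome order, with nm for genes without a probe set of their own in the annotation used. Crct1, Sprr1a, Ly6d and Ly6g6c stand out from neighbours that differ by less than 1 log2 unit.

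The S100 genes, calcium-binding proteins that flank the complex, had a median difference of 0.46. Of 11 measured, 0 passed in limma, and 4 had an unadjusted p under 0.05, all higher. Without caspase-8 deficient replicate 1, 2 passed. S100a6 read 11.94, 12.09 and 11.92 in caspase-8 deficient arrays, against 11.24, 10.92 and 11.50 in floxed control arrays, a difference of 0.76 (SE 0.16, adjusted p = 0.083). S100a14 stood at 0.77 (adjusted p = 0.127) and S100a5 at 0.57 (adjusted p = 0.116). In all 3, named for the smallest p of the list, the caspase-8 deficient arrays lay above the floxed control arrays. This order held in 5 of the 11 S100 genes and in 11.5% of all genes.

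Of 25 other measured genes of the Ly6/uPAR family, 1 rose, 0 fell and 24 did not pass, with a median difference of 0.00045. The gene that rose was Plaur, the urokinase receptor, which read 6.86, 7.08 and 7.02 in caspase-8 deficient arrays, against 6.32, 6.27 and 6.07 in floxed control arrays (log2 0.77, SE 0.12, limma adjusted p = 0.0431). The list count was 1 without caspase-8 deficient replicate 1, and 0 when any of the other 5 arrays was left out. Ly6g6e stood at 0.67 (adjusted p = 0.173) and Lynx1 at 0.50 (adjusted p = 0.223). Gpihbp1, the lipase anchor of capillary endothelium, read 6.67, 5.05 and 4.70 in caspase-8 deficient arrays, against 4.65, 4.32 and 4.68 in floxed control arrays. Its high value was on caspase-8 deficient replicate 1, the array with the high endothelial markers.

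Genes that build and hold the cornified envelope were set beside these. Of 25 genes for envelope assembly and squamous adhesion, 0 passed in limma, while 4 higher and 1 lower had an unadjusted p under 0.05, and the median was 0.10. Ppl, periplakin, stood at 0.68 (SE 0.15, adjusted p = 0.0932), Sfn, the 14-3-3 sigma protein, at 0.62 (adjusted p = 0.123) and Perp, a desmosomal membrane protein, at 0.38 (adjusted p = 0.196). Of 21 transcription factors known to act on such genes, 0 passed, while 5 higher and 2 lower had an unadjusted p under 0.05. Their median difference was 0.20. Ehf, an ETS factor of epithelia, stood at -0.91 (SE 0.19, adjusted p = 0.0886), and of the Grainyhead-like factors Grhl1 stood at 0.87 (adjusted p = 0.118) and Grhl2 at -0.43 (adjusted p = 0.167), with Grhl3 at 0.38 (adjusted p = 0.341). Prdm1, which acts in keratinocyte maturation, stood at 0.71 (adjusted p = 0.164). Of the genes for AP-1 factors, Fosl1 stood at 0.51, Fosb at 0.47, Fos at 0.28 and Fosl2 at 0.16. Jun and Junb stood at 0.20 each, and Jund at -0.21. Their part in the differences of Sprr1a and Ivl was not tested.

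The labelled tissue was checked against markers. All 14 intestinal epithelial markers, among them villin (Vil1), Epcam and the keratin gene Krt20, lay between 8.48 and 13.94 on every array, and 0 of them passed in limma (3 higher and 1 lower at an unadjusted p under 0.05). Of 16 markers of stratified squamous epithelium, 0 passed and 1 had an unadjusted p under 0.05, and 11 lay under the median of all probe sets on every array. Their mean level was 4.34 to 4.47 in caspase-8 deficient arrays and 4.17 to 4.38 in floxed control arrays. The defining Krt14, Trp63, Krt13 and Krt4 differed by -0.077, 0.22, -0.080 and 0.057, and Krt5 by 0.20. The exception in size was Serpinb5, the serpin maspin of squamous and glandular epithelia. It read 8.65, 8.67 and 8.40 in caspase-8 deficient arrays, against 7.24, 6.14 and 7.73 in floxed control arrays, a difference of 1.53 (SE 0.35, adjusted p = 0.101).

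Of markers of other cells that carry Ly6 proteins or may lie in the preparation, 0 of 13 endothelial, 0 of 11 T cell and 0 of 10 stromal genes (fibroblast and smooth muscle) passed in limma, with 0, 0 and 2 at an unadjusted p under 0.05. Of 12 myeloid markers, 1 passed: Lyz2 fell by 1.54 (limma adjusted p = 0.00395). Its sequence is close to that of Lyz1 of Paneth cells, and the probe set may read both. T cell markers averaged 7.44 to 7.90 in caspase-8 deficient arrays and 7.62 to 8.01 in floxed control arrays. Stromal markers averaged 4.38 to 5.27 in caspase-8 deficient arrays and 4.20 to 5.05 in floxed control arrays. Myeloid markers averaged 5.91 to 6.05 in caspase-8 deficient arrays and 5.78 to 6.22 in floxed control arrays. Their part in the differences of the 6 genes was not tested.

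Both responses in which Ly6 or Sprr genes are known to take part held genes that rose. Of 16 genes of injured or fetal-type intestinal epithelium, 4 rose, 0 fell and 12 did not pass, with a median of 0.59. At an unadjusted p under 0.05 in limma, 8 were higher and 2 lower. The 4 that rose were Il1rn (log2 3.31), Anxa1 (2.94), Tm4sf4 (1.69) and Plaur (0.77). Their adjusted p values in limma were 0.00457, 0.0247, 0.0227 and 0.0431. This list was written with earlier results of these arrays known and is not independent evidence. Without caspase-8 deficient replicates 1, 2 and 3 the count was 4, 1 and 0, and without floxed control replicates 1, 2 and 3 it was 1, 1 and 3. Among interferon response genes, 21 were measured and 3 passed, all higher, with a median of 0.53. At an unadjusted p under 0.05 in limma, 12 were higher and 0 lower. Over all genes 0.308% passed as higher, which is the scale for both lists. Oas1a stood at 0.94, Rtp4 at 1.13 and Ifit3 at 1.12. Of the 21, 18 differences were positive and 3 negative, the lowest at -0.67, and 0 passed as lower. Ly6e, itself interferon-induced, did not pass and stood at -0.46, or -0.19 without floxed control replicate 2. The count of the 21 that passed as higher was 5, 0 and 0 without caspase-8 deficient replicates 1, 2 and 3. Without floxed control replicates 1, 2 and 3 it was 0, 0 and 2.

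**Figure D4:**
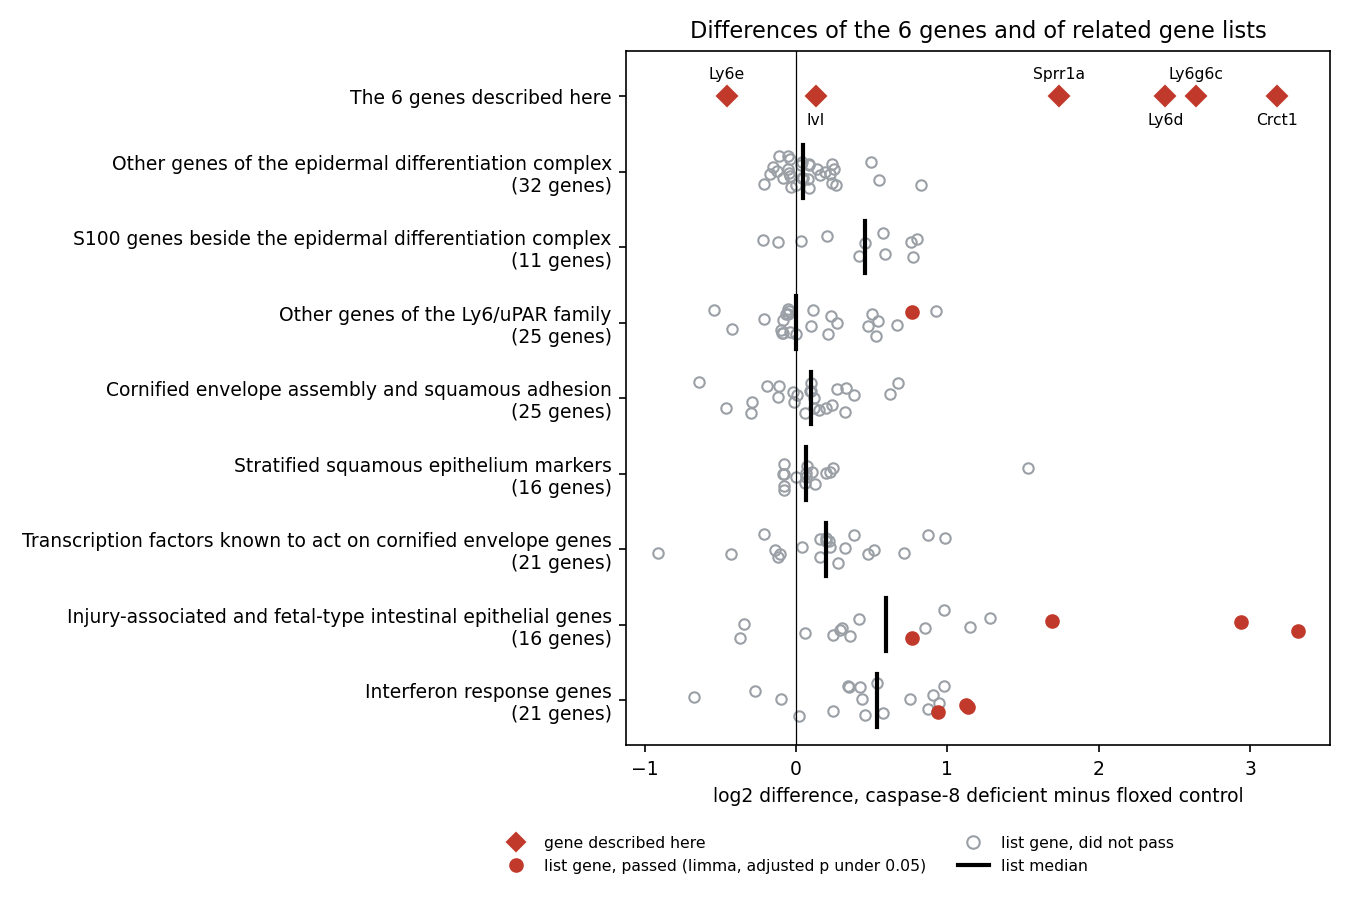
Log2 difference (caspase-8 deficient minus floxed control) of the 6 genes (diamonds) above 8 related gene lists (circles, 1 per gene; filled where limma's adjusted p was under 0.05; vertical position within a list is arbitrary). Black bars are list medians. Crct1, Ly6g6c, Ly6d and Sprr1a lie to the right of every circle of the epidermal differentiation complex, Ly6/uPAR, envelope assembly and squamous lists.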

How the data were processed

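The deposited log2 values were made by the authors with RMA, per the submitters' processing notes. RMA removes background, makes the arrays' distributions alike and reduces each probe set to 1 value, and the sources used here name no version or settings. Values ran from 1.13 to 14.10, and array medians from 4.85 to 4.91. The platform annotation, which may be out of date, gave 34945 of 45101 probe sets 1 gene and 932 several. A further 9160 had none, and 64 were manufacturer controls.

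A gene was represented by its probe set with the highest mean, giving 18193 genes, with no filter. Limma 3.58.1 in R 4.3.3 (lmFit, eBayes, two-sided) fitted group over the 6 arrays, with Benjamini-Hochberg adjustment over all genes and a threshold of 0.05. The prior had 3.97 degrees of freedom. The code was tested on simulated data. The 7 genes, the gene lists and the alternatives were chosen with earlier results of these data known. The text names the 7 genes, up to 3 genes of smallest p per list, and the 3 genes nearest in profile to each. Also named, chosen after their values were seen, are Sprr1b, Sprr3, Lor, Grhl2, Grhl3, the Fos and Jun genes, Gpihbp1, the neighbours, Lyz2 and the defining markers. Python 3.11.15, pandas 2.3.3 and matplotlib 3.10.9 handled tables and plots. Same-numbered arrays of the groups had correlations of 0.077, 0.10 and -0.0074 of their deviations, so the numbers were not taken as pairs.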

Additional observations from a re-analysis of the deposited data

How the results depend on the processing

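The 6 genes gave 3 calls, which stayed between 1 and 3 when 1 array was left out, and were 1 with the Gapdh covariate and 0 without both floxed control replicates 1 and 2. The sign of Ivl turned without caspase-8 deficient replicate 1 (-0.035) or floxed control replicate 2 (-0.024), with a range of -0.035 to 0.30 over the 6 arrays left out in turn, and no other of the 6 changed sign under any of the alternatives run. Over all genes, 141 were called, 56 higher and 85 lower, with 3029 at an unadjusted p under 0.05. Leaving out 1 array gave 18 to 251 calls, with 4 to 99 higher and 14 to 152 lower. The total was 251, 23 and 18 without caspase-8 deficient replicates 1, 2 and 3, and 23, 31 and 56 without floxed control replicates 1, 2 and 3. Leaving out genes under the median level gave 298 (131 higher, 167 lower), a variance trend with a robust prior 252 (116 higher, 136 lower), the Gapdh covariate 36 (6 higher, 30 lower), and leaving out both floxed control replicates 1 and 2 gave 5 (0 higher, 5 lower). The higher share of calls was 39.7%, and 42.9% after median centring. The S100 count of 0 became 1 without genes under the median level and 1 with the variance trend, and lay between 0 and 2 without single arrays. The Ly6/uPAR count of 1 became 0 without probe sets with the suffix _s_at, _x_at or _a_at, which include that of Plaur. It was 0 with the Gapdh covariate and 0 to 1 without single arrays. Of the transcription factors, 1 was called lower without genes under the median level. The injury count of 4 was 1 with the Gapdh covariate, 0 without both floxed controls and 0 to 4 without single arrays. The interferon count of 3 was 6 without genes under the median level, 5 with the variance trend, 0 with the Gapdh covariate, 0 without both floxed controls and 0 to 5 without single arrays. The causes were not tested.

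With the replicate number as a block, 113 genes were called (40 higher, 73 lower), and the Ly6/uPAR count was 0. Of the 6 genes 3 passed, Crct1, Ly6d and Sprr1a, with Ly6g6c missing; 4 of the 6 arrays correlated best with their own number. Dim signals are compressed by RMA. This limits what Ivl, the floxed control values of Crct1 and the dim genes of the envelope lists can show. Of the 25 genes for envelope assembly and squamous adhesion, 14 lay under the median of all probe sets on every array. Precision is limited by having 3 arrays a group.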

Other observations

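Probe sets paired with several genes entered no comparison above and are given here as values. Of these, 3 are paired with nothing but Sprr2a-type small proline-rich genes, whose near-identical copies they cannot tell apart. They read 9.05, 11.02 and 11.09, then 13.60, 13.86 and 13.94, then 13.24, 13.34 and 13.32 in caspase-8 deficient arrays. In floxed control arrays the same probe sets read 8.86, 10.38 and 9.42, then 13.39, 13.81 and 13.70, then 12.85, 13.15 and 13.06. The log2 differences were 0.83, 0.17 and 0.28, none of them tested. In these 3 probe sets, as in that of Sprr1a, replicate 1 was the lowest array of each group. A probe set paired with several Ly6 genes read 7.66, 5.99 and 5.62 in caspase-8 deficient arrays, against 5.71, 5.61 and 6.40 in floxed control arrays, with its highest value on the caspase-8 deficient array that also had the highest endothelial markers.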
